A study of Mus musculus with 14 samples.

Results

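Mitochondrial ribosomal protein genes were taken as the protein-coding genes whose symbol begins with Mrpl or Mrps followed by a number. Of 78 such genes in release M21 of the GENCODE mouse annotation, 77 were among the 39017 gene identifiers of the count table, and Mrpl33 was not analysed here. All 77 passed edgeR's default filter on low counts and were among the 21298 genes tested. RNA was taken from the hippocampus of young adult male C57BL/6 mice in which PV-Cre, active in parvalbumin-positive (PV) neurons, switched on EGFP-L10a, a tagged protein of the cytosolic ribosome. In translating ribosome affinity purification (TRAP), tagged polysomes are pulled out of a tissue homogenate and the RNA attached to them is sequenced. The 11 TRAP libraries came from 4 samples of non-defeated mice housed without an aggressor, 4 of resilient mice and 3 of susceptible mice, and the last 2 groups had been through chronic social defeat stress (CSDS), in which a mouse is attacked repeatedly by larger CD-1 males, and were separated by how much they then approached another mouse. The other 3 libraries, called input, held total RNA of the unpurified homogenate from non-defeated animals. All groups carried both the Cre and the tagged protein. How many mice gave each library is not given in the sources used here, so p-values measure the spread between these samples.

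The mitoribosome is the ribosome inside mitochondria. It translates the few mRNAs encoded in mitochondrial DNA, which all specify subunits of the respiratory chain and ATP synthase, and its RNA parts are encoded there too. Its proteins are all nuclear genes, translated on cytosolic ribosomes and imported, and they comprise descendants of bacterial ribosomal proteins together with proteins found only in mitochondria. PV neurons are fast-spiking inhibitory neurons known for many mitochondria and a high energy demand. Of the 77 genes, 50 encode proteins of the large subunit, which forms the peptide bond, and Mrps18a and Mrps30 are counted among them despite their names. A further 26 encode proteins of the small subunit, which reads the codons. The last, Mrps36, is a component of the 2-oxoglutarate dehydrogenase complex. By family, 47 members were counted under bacterial ribosomal protein families and 29 as specific to mitochondria. Mrpl55 was counted among the 47, although its protein, mL55, is classed as specific to mitochondria.

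Promoters of these genes are known for sites of a few general transcription factors, so windows from 250 bases before to 50 bases after the transcription start were read from RefSeq (GRCm38.p6). Windows were found for 68 of the 77 members, 74 windows in all, beside 32851 windows of all genes. Exact matches on either strand were counted. The NRF1 core CGCATGCG was in 9.46% of member windows and 1.87% of all windows. For the ETS core CCGGAAG, the site type of GABPA, the shares were 33.8% and 8.86%, and for the YY1 core AAGATGGC 16.2% and 2.75%. The SP1 box GGGCGG was in 52.7% and 35.7%. At least 1 of the first 3 was in 37 of the 74 member windows and in 12.6% of all windows. No letter string contains another, and a match is a description of the letters and not a measured site. The 250 bases before the start are shown for 3 members on which the results below turn, Mrps14 because it alone passed the adjusted threshold between susceptible and resilient mice, Mrps36 because it differed most between those groups, and Mrpl34 because it differed most between TRAP and input. They lie at chr1:160194965-160195214 on the plus strand, chr13:100744660-100744909 on the minus strand and chr8:71464676-71464925 on the plus strand. Capitals mark motif matches, the SP1 box or its reverse complement in the first 2 and the ETS core in the third.
Mrps14: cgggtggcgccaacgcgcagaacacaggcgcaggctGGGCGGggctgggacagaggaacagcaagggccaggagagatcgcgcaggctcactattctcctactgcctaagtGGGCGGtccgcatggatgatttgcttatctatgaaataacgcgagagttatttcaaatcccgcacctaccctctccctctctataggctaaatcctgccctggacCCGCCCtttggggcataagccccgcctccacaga
Mrps36: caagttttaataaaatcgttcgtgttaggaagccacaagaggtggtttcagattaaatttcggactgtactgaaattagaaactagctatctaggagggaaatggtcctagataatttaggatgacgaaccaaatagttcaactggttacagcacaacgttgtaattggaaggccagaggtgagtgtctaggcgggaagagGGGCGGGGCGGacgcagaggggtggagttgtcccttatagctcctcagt
Mrpl34: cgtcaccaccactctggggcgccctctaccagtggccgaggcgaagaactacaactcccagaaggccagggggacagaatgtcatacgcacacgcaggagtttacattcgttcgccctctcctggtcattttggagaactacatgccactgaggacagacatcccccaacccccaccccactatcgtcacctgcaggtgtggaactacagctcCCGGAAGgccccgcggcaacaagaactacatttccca
Counted from the first base shown, matches start at bases 37, 112 and 217 for Mrps14 and at base 214 for Mrpl34. Those of Mrps36 start at bases 202 and 207 and share 1 base. The 25 members with an ETS core had a median log2 fold change of 0.91 between TRAP and input and of 0.22 between susceptible and resilient mice, and the 43 without it had 0.74 and 0.12. The order was the opposite for the 7 members with an NRF1 core, at 0.64 and 0.12, against 0.79 and 0.17 in the 61 without it. The 12 with a YY1 core had 0.79 and 0.14, and the 56 without it 0.77 and 0.16. For the SP1 box the values were 0.80 and 0.20 in 34 members with it and 0.73 and 0.12 in 34 without it. These medians were not tested.

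The libraries were deep enough to count every member. Total counts ran from 64110214 to 80063224 in input, 72098582 to 94726962 in non-defeated, 75325264 to 87316567 in resilient and 73348628 to 77566993 in susceptible samples, and the lowest count of any member in any library was 1316. The members together took 0.454% to 0.459% of counts in input, 0.666% to 0.809% in non-defeated, 0.676% to 0.782% in resilient and 0.701% to 0.856% in susceptible samples. In TRAP of non-defeated mice the summed level of 5 PV neuron markers was 3660 to 4035 CPM (counts scaled to library size) against 507.8 to 604.6 in input, and all 5 were higher. All listed markers of excitatory neurons, oligodendrocytes, microglia and red blood cells and 4 of 5 of astrocytes were lower in TRAP (adjusted p, edgeR), although none was at 0. Of 4 endothelial markers 1 was higher, with summed levels of 3.29 to 5.88 CPM in non-defeated and 2.44 to 3.44 in input.

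Levels of the members were compared per length, as RPKM, which is CPM divided by the exon length in kilobases. Their median was 19.8 RPKM in input, 35.4 in non-defeated, 33.8 in resilient and 37.6 in susceptible samples. In non-defeated TRAP, 12 members were at 100 RPKM or more and 10 were under 10 RPKM. The highest were Mrps12, a protein of the decoding centre, at 187 ± 16.8 RPKM (SD, n = 4), Mrpl34, a small protein of the large subunit, at 185 ± 27.2, and Mrps21, a small-subunit protein, at 183 ± 30.3. These levels differed from each other by less than their spread. The lowest were Mrps35 at 4.52 ± 0.197, Mrps9, whose bacterial relative contacts the tRNA being extended, at 5.30 ± 0.321, and Mrpl1, of the mobile L1 stalk beside the tRNA exit, at 5.44 ± 0.262, and Mrps9 and Mrpl1 did not differ beyond their spread. The order of levels was much the same in input, with a Spearman rho of 0.96 across the 77 genes between input and non-defeated RPKM. Both share the gene lengths used for RPKM.

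TRAP was compared with input to ask how the members stand in RNA bound to ribosomes of PV neurons relative to the whole hippocampus. All 77 members were above input (76 of 77 with a correction for gene length), and 71 were higher by edgeR's adjusted p, where 27.4% of all genes tested were. None was lower at an adjusted or an unadjusted threshold, nor with DESeq2, where 27.6% of all genes were lower by edgeR. The median log2 fold change was 0.79 (0.86 with a correction for GC content), against −0.04 over all genes, and 25 members were at least 2 times higher. For 74 members every TRAP library was above every input library, as for 29.5% of all genes. In bulk RNA, fewer cells of a type and less RNA per cell cannot be told apart.

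**Figure D1:**
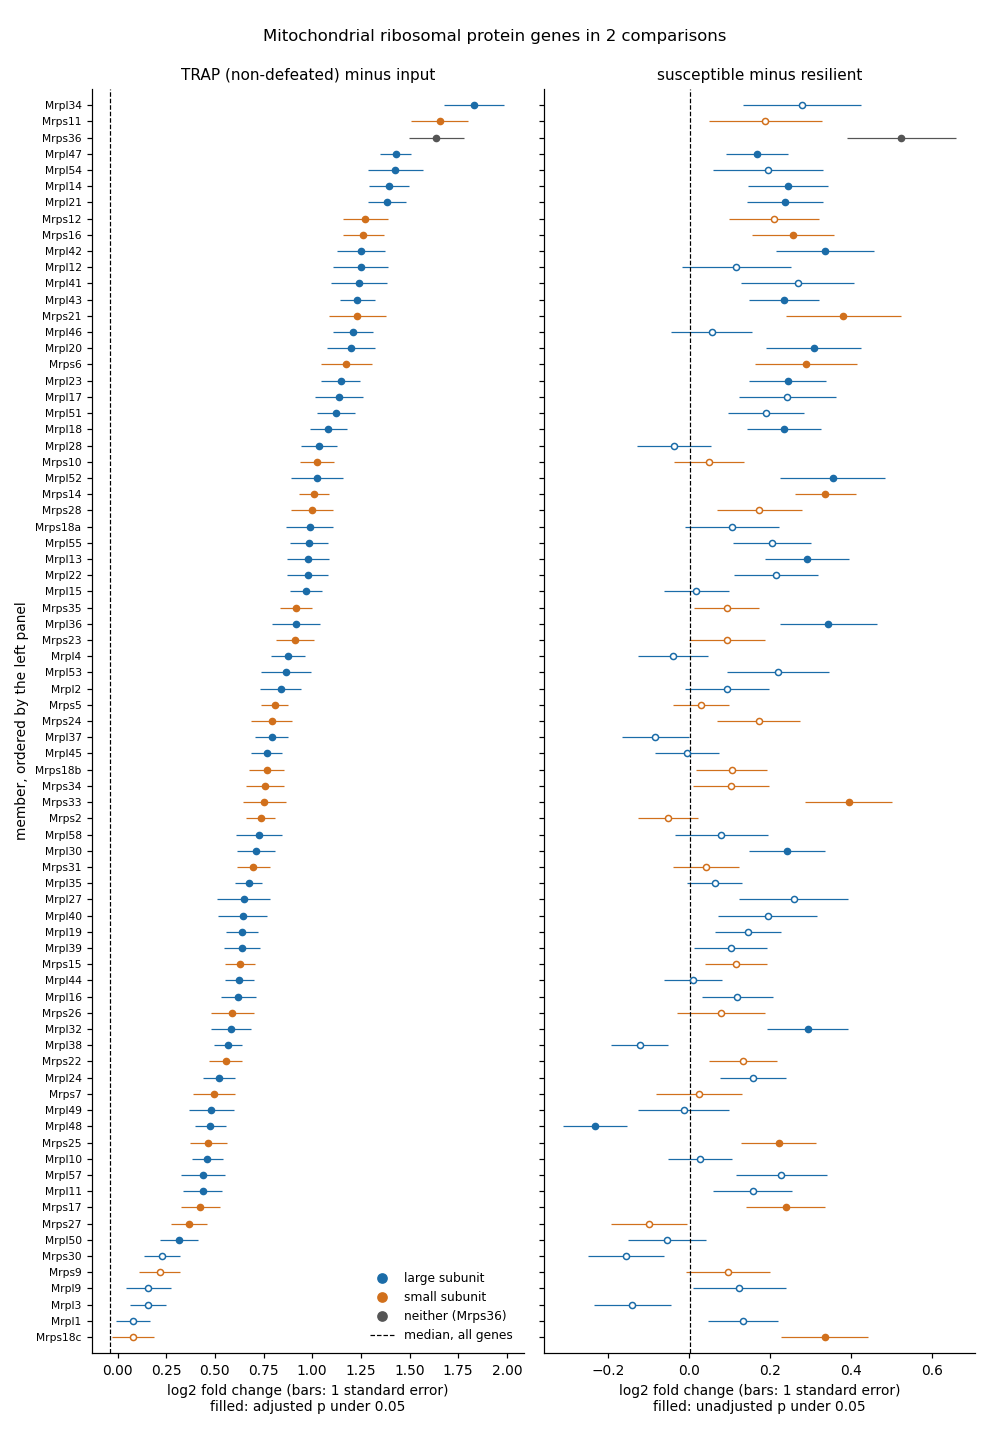
Log2 fold change of each of the 77 members with its standard error, for TRAP of 4 non-defeated samples against 3 input samples (left) and for 3 susceptible against 4 resilient samples (right), with the dashed line at the median of all genes tested. Left, all members lie to the right of the line, and 71 are filled for an adjusted p under 0.05, while on the right 65 lie above 0 and 23 are filled for an unadjusted p under 0.05.

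The largest difference was that of Mrpl34. Its levels were 51.4, 51.4 and 53.6 RPKM in input and 211, 207, 159 and 165 RPKM in non-defeated samples 1, 6, 9 and 11. Both samples numbered 1 and 6 were higher than both numbered 9 and 11, and no TRAP library came near input. The fold was 3.56 and the log2 fold change 1.83 ± 0.15 (SE; adjusted p = 2.85e-07, edgeR). Mrps36 was at 41.3, 42.6 and 44.4 RPKM in input and 151, 144, 120 and 119 in the same non-defeated samples, a fold of 3.11. The groups lay far apart, and the counts of Mrps36 are uncertain, because Mrps36-ps1 and Mrps36-ps2, processed copies of it, held 107173 and 39242 counts over all libraries against its own 158101. Both copies were also higher in TRAP than in input, by 1.65 and 1.78 on the log2 scale. The smallest p-value was that of Mrpl47, which lies at the exit of the peptide tunnel. Mrpl47 was at 8.20, 7.64 and 7.59 RPKM in input and 21.7, 21.4, 20.2 and 20.8 in non-defeated samples, and its log2 fold change was 1.43 ± 0.08 (edgeR, adjusted p = 8e-09). Mrpl21 and Mrpl43, further proteins of the large subunit, followed at 1.39 ± 0.10 and 1.23 ± 0.09. On the opposite strand exons of Mrpl47 overlap those of Actl6a and Ndufb5, exons of Mrpl21 those of Ighmbp2 and exons of Mrpl43 those of Twnk.

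Members of the large subunit had a median log2 fold change of 0.85 and 46 of 50 were higher by adjusted p, where 27.4% of all genes were. Those of the small subunit had 0.76 with 24 of 26. Bacterial-family members had 0.92 with 42 of 47, and mitochondria-specific ones 0.73 with 28 of 29. These differences between classes were not tested. The 6 members that did not pass were Mrps18c, Mrpl1, Mrpl3, Mrpl9, Mrps9 and Mrps30, of which Mrpl9 was named after its values were seen. Mrps18c had the smallest value, at 42.4, 40.9 and 38.8 RPKM in input and 48.9, 46.4, 36.9 and 39.6 in non-defeated samples, which overlap. Its log2 fold change was 0.08 ± 0.11 (adjusted p = 0.556, edgeR). Mrps30, in the large subunit, was at 0.23 ± 0.09 (adjusted p = 0.0526), although its TRAP libraries, 6.16 to 7.16 RPKM, were all above those of input, 5.36 to 6.02.

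The 3 paralogs of bacterial protein S18 illustrate the range. A mitoribosome holds Mrps18b and Mrps18c in its small subunit and Mrps18a in its large subunit. Mrps18a was at 37.1 ± 3.70 RPKM in non-defeated TRAP and 18.7 ± 0.316 in input, a log2 fold change of 0.99 ± 0.12 (adjusted p = 8.62e-06). Mrps18b was at 29.9 ± 2.13 and 17.5 ± 0.497 RPKM, a log2 fold change of 0.77 ± 0.09 (adjusted p = 5.97e-06). Mrps18c, at 40.7 ± 1.82 RPKM in input, was the highest of the 3 there and had the smallest difference.

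Other members were followed by role. In the stalk base, where translation factors bind, Mrpl12 rose from 50.4 ± 0.0556 RPKM in input to 120 ± 11.7 in TRAP, its partner Mrpl10 from 51.0 ± 1.71 to 70.2 ± 2.31 and Mrpl11 from 14.9 ± 0.471 to 20.2 ± 1.44. The first 2 were thus at nearly the same level in input and at 1.25 ± 0.14 and 0.46 ± 0.08 on the log2 scale in TRAP against input. Near the peptidyl transferase centre, Mrpl2 was higher by 0.84 ± 0.10, and Mrpl3, at 0.16 ± 0.09, did not pass (adjusted p = 0.173, edgeR). Mrpl45, which anchors the ribosome to the inner membrane, was higher by 0.77 ± 0.08, and Mrpl58, a peptidyl-tRNA hydrolase built into the large subunit, by 0.73 ± 0.12. In the small subunit Mrps5, at the mRNA path, was higher by 0.81 ± 0.07, Mrps34 by 0.76 ± 0.10, Mrps22 by 0.56 ± 0.08 and Mrps7 by 0.50 ± 0.11.

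Shorter genes had larger differences. The 26 shortest members, with 607 to 1664 bases of exon, had a median log2 fold change of 1.06, against 0.64 for the 25 in the middle and 0.71 for the 26 longest. Across the members, gene length and this fold change had a Spearman rho of −0.37, and across 20866 genes with a length −0.23, all from the same libraries. The members' median length was 2255 bases against 3364 over all genes tested. With a correction for length in the fit, 75 members were higher at the adjusted threshold. In 32 members an exon overlaps one of another gene, in 28 on the opposite strand, and since the library kit keeps no strand, reads there cannot be assigned. The other 45 members had a median log2 fold change of 0.88.

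Related genes gave a different picture by class. A list of 93 nuclear oxidative phosphorylation genes had a median of 1.45 with 88 higher and 1 lower. It was chosen by the start of the symbol, which takes in subunits and also the complex I assembly factors named Ndufaf. The 82 cytosolic ribosomal proteins had 0.59 with 62 higher and 2 lower. Among mitoribosomal proteins with other names Gadd45gip1 and Chchd1 each had 1.18, Aurkaip1 0.95 and Dap3 0.54, all higher, while Ptcd3 was at −0.02 and did not pass (adjusted p = 0.913, edgeR). Of 30 factors that assemble the mitoribosome or modify its RNA, 14 were higher and 2 lower, with a median of 0.25. Trmt2b, a methyltransferase, at 1.37 and Mrm3, a methyltransferase of the large ribosomal RNA, at 1.07 were highest, and Mtg1, a GTPase of large-subunit assembly, at −0.29 and Rpusd3, a pseudouridine synthase, at −0.45 were lower. Of 16 translation factors 8 were higher, with Tsfm (1.25) and its partner Tufm (0.89), the elongation factors that deliver tRNAs, at the top. RNA made inside mitochondria was lower in TRAP. The ribosomal RNAs mt-Rnr1 and mt-Rnr2 differed by −3.89 and −4.48 on the log2 scale, and all 13 mitochondrially encoded mRNAs were lower, with a median of −4.53. The tagged ribosomes are cytosolic and do not translate this RNA, so these values do not give its level in PV neurons.

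**Figure D2:**
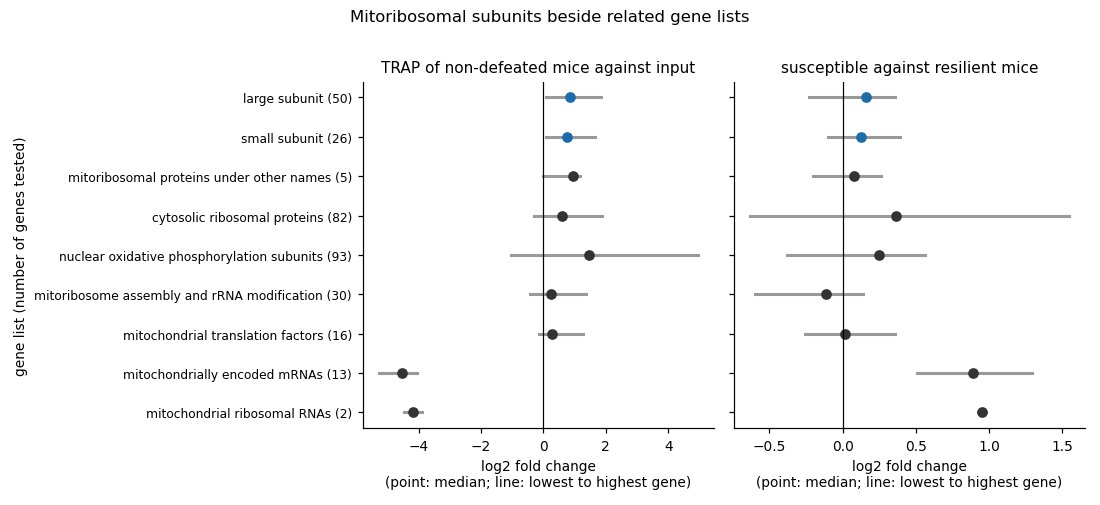
Median (point) and lowest to highest gene (line) of the log2 fold change for gene lists, for TRAP against input (left) and susceptible against resilient mice (right). Left, the large and small mitoribosomal subunits lie at 0.85 and 0.76, between cytosolic ribosomal proteins at 0.59 and the list labelled oxidative phosphorylation subunits at 1.45. That list also takes in complex I assembly factors. RNA encoded in mitochondria lies at −3.89 or lower. On the right mitoribosome assembly factors lie at −0.12 and both mitoribosomal subunits above 0.

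Susceptible and resilient mice were compared to ask whether the members differ with the response to CSDS. Of 77 members 65 were higher in susceptible mice, and the median log2 fold change was 0.16 against 0.00 over all genes. At an unadjusted p under 0.05, which the study used to count overlapping genes while its methods set a fold above 2 with an adjusted p, 22 members were higher and 1 lower, where 10.8% of all genes were higher and 10.1% lower. With adjustment over all genes only Mrps14 passed (edgeR), in a comparison where 1.89% of all genes did. For 7 members every susceptible library was above every resilient one, as for 7.71% of all genes, for 2 every one was below, as for 7.44%, and for the other 68 the groups overlapped. Non-overlapping groups give an exact permutation p of 0.0571, the smallest that 3 against 4 samples allow.

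The counts turned on single libraries. Susceptible sample 4 was the highest of all 11 TRAP libraries for 57 members and susceptible sample 10 the lowest for 17. The mean log2 CPM over members was 0.23 above the TRAP mean in susceptible sample 4 and 0.09 above it in sample 2, but 0.08 below it in sample 10. In resilient samples 3, 5, 7 and 8 it was +0.04, −0.09, −0.06 and −0.13, so the group ranges overlapped. Group means were 6.40 ± 0.09 (SD, n = 4) in non-defeated, 6.34 ± 0.07 (n = 4) in resilient and 6.48 ± 0.16 (n = 3) in susceptible samples. Without susceptible sample 4, 5 members were higher at the unadjusted threshold and 2 lower, and none passed adjustment. Without sample 10, 41 were higher and 2 lower, and 9 passed adjustment. Without susceptible sample 2 or resilient sample 8, 11 and 14 were higher. The shares of all genes given above are those of the main fit, and none is given for these smaller fits. Whether calls over all genes moved alike was not tested. Among libraries with sample numbers 1 to 6 (2 of each group) the median difference was 0.22, and among those numbered 7 to 11 (1 susceptible, 2 resilient) it was 0.01. The labels do not say what the numbers stand for.

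**Figure D3:**
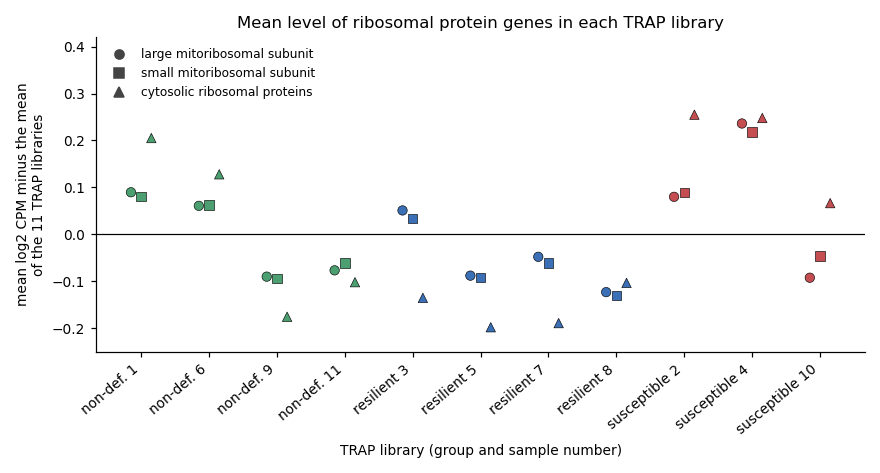
Mean log2 CPM of large-subunit (circles) and small-subunit (squares) members and of cytosolic ribosomal proteins (triangles) in each TRAP library, minus the mean over the 11 TRAP libraries. Susceptible sample 4 stands highest for both subunits at 0.24 and 0.22, susceptible sample 10 lies below 0 for both while its cytosolic ribosomal proteins lie at 0.07, and non-defeated samples 1 and 6 lie above samples 9 and 11.

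Mrps14 is a protein in the head of the small subunit, encoded on chromosome 1 (160195215 to 160202170, plus strand, GRCm38). Its levels were 45.8, 50.9 and 47.7 RPKM in susceptible samples 2, 4 and 10 and 40.9, 37.0, 37.9 and 36.7 in resilient samples 3, 5, 7 and 8. Every susceptible library was above every resilient one, and sample 10, the lowest TRAP library for 17 members, was not low here. The log2 fold change was 0.34 ± 0.07 (edgeR p = 0.000473, adjusted p = 0.0419, exact permutation p = 0.0571), a fold of 1.26, and it stayed between 0.29 and 0.37 with each library left out. The adjusted p lay between 0.0137 and 0.154 over the alternatives, and among single libraries left out only the omission of susceptible sample 10 kept it under 0.05. In non-defeated samples 1, 6, 9 and 11 the levels were 45.4, 45.5, 39.9 and 43.2 RPKM, below every susceptible library and overlapping the resilient ones.

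**Figure D4:**
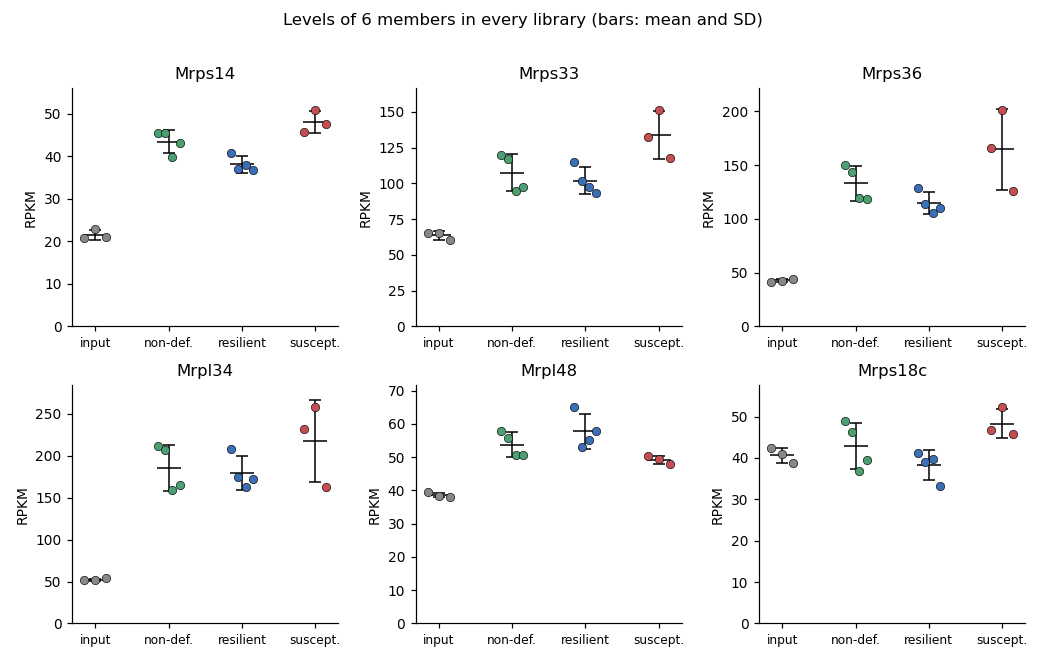
RPKM of 6 members in every library with the mean and SD of each group (3 input, 4 non-defeated, 4 resilient and 3 susceptible samples), each axis starting at 0. Mrps14 shows separate susceptible and resilient groups at 48.1 and 38.1 RPKM on average, Mrps36 and Mrpl34 have their highest value in susceptible sample 4, Mrpl48 is lower in susceptible than in resilient samples, and Mrps18c differs little between input and non-defeated samples.

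The next members by p-value were also named for the small subunit. Mrps36 was at 166, 201 and 126 RPKM in susceptible and 129, 114, 105 and 110 in resilient samples, with the lowest susceptible value just under the highest resilient one. Its log2 fold change was the largest of the members, 0.52 ± 0.13 (adjusted p = 0.0586), and it was 0.35 to 0.68 with single libraries left out. Its copy Mrps36-ps1 had 0.57 (adjusted p = 0.0469), and reads of the pair may not be separable. Mrps33, in the head of the small subunit, was at 132, 151 and 118 RPKM in susceptible and 115, 102, 97.8 and 93.3 in resilient samples, which did not overlap, and its log2 fold change was 0.39 ± 0.11 (edgeR, adjusted p = 0.0691). Mrps18c was at 46.9, 52.3 and 45.7 against 41.3, 39.1, 39.7 and 33.2 RPKM, again without overlap, with 0.33 ± 0.11 (adjusted p = 0.103). An exon of Mrps18c overlaps Gm43511 on the same strand.

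Mrpl48 was the single member lower at the unadjusted threshold. This protein of the central protuberance of the large subunit was at 50.3, 49.5 and 48.0 RPKM in susceptible and 65.1, 52.9, 55.3 and 58.0 in resilient samples, without overlap, and resilient sample 3 was the highest. Its log2 fold change was −0.23 ± 0.08 (edgeR p = 0.0105, adjusted p = 0.12, exact permutation p = 0.0571), and with a correction for length it no longer passed at the unadjusted threshold. Its gene overlaps Rab6a on the opposite strand and has a copy, Mrpl48-ps, with 19444 counts against 449529. Mrpl38, also of the central protuberance, was at 30.9, 31.1 and 31.2 against 33.2, 33.7, 36.5 and 31.7 RPKM, lower in every susceptible library, with −0.12 ± 0.07 (edgeR p = 0.108, exact permutation p = 0.0571). Next among negative values were Mrpl3 at −0.14 ± 0.09, Mrps30 at −0.15 ± 0.09 and Mrps27, a pentatricopeptide repeat protein, at −0.10 ± 0.09, none of which passed.

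By class, 13 of 50 large-subunit members and 8 of 26 small-subunit members were higher at the unadjusted threshold, with medians of 0.16 and 0.12. Bacterial-family members had 16 of 47 with a median of 0.17, against 5 of 29 with 0.09 in mitochondria-specific ones. Of all genes 10.8% were higher at this threshold. Of the 18 members chosen by role, Mrps36 and Mrps18c, given above, passed the unadjusted threshold. The other 16 did not, and they ran from −0.15 ± 0.09 for Mrps30 to 0.21 ± 0.11 for Mrps12. In the stalk, Mrpl11 was at 0.16 ± 0.10, Mrpl12 at 0.12 ± 0.13 and Mrpl10 at 0.03 ± 0.08, and Mrpl1 was at 0.13 ± 0.09. Mrpl2 was at 0.09 ± 0.10, Mrpl58 at 0.08 ± 0.12 and Mrpl45 at 0.00 ± 0.08. In the small subunit Mrps22 was at 0.13 ± 0.08, Mrps34 and Mrps18b at 0.10 ± 0.09, Mrps5 at 0.03 ± 0.07 and Mrps7 at 0.02 ± 0.11, and Mrps18a, of the large subunit, at 0.11 ± 0.12. Mrpl34 (0.28 ± 0.15) did not pass, and Mrps21 did at the unadjusted threshold only (0.38 ± 0.14, edgeR p = 0.0177, adjusted p = 0.15, exact permutation p = 0.171). In Mrpl34 the values were 232, 258 and 163 RPKM against 208, 175, 162 and 172, so sample 10 fell among the resilient ones.

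Shorter members had larger values here too. The shortest members had a median of 0.23, the middle 0.12 and the longest 0.10, with a Spearman rho of −0.35 across members and −0.16 across 20866 genes. The difference between susceptible and resilient mice and that between TRAP and input, which share no library, had a rho of 0.45 across the 77 members. The 45 members that overlap no other gene had a median of 0.16.

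Related lists differed by class in this comparison. At the unadjusted threshold 75 of 82 cytosolic ribosomal proteins were higher, 20 with adjustment, with a median of 0.36. Of the 93 listed oxidative phosphorylation genes 52 were higher and 4 lower, 4 with adjustment, with a median of 0.25. At the unadjusted threshold 10.8% of all genes were higher and 10.1% lower. Among assembly factors none was higher and 6 of 30 were lower at the unadjusted threshold, with a median of −0.12, and none passed adjustment. Translation factors had 1 higher and 1 lower of 16. The other-named mitoribosomal proteins Chchd1, Aurkaip1, Gadd45gip1, Dap3 and Ptcd3 had 0.26, 0.08, 0.08, −0.14 and −0.20, of which the first passed the unadjusted threshold (adjusted p = 0.128, edgeR). The 2 mitochondrial ribosomal RNAs had 0.92 and 0.98 and both passed the unadjusted threshold only (adjusted p = 0.133), and all 13 mitochondrially encoded mRNAs were above 0 with a median of 0.89, 7 of them at the unadjusted threshold and none adjusted. The tagged ribosomes do not translate RNA made inside mitochondria, so these values do not give its level in PV neurons.

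Red blood cell markers also differed. All 4 globin genes were higher in susceptible than in resilient mice by adjusted p, with summed levels of 885 to 1218 CPM against 127.4 to 587.7, beside 114.5 to 239.6 in non-defeated and 773.8 to 980.7 in input, and none was at 0. The sum was highest, 1218 CPM, in susceptible sample 10, where the members averaged below the TRAP mean. It was 909.8 CPM in sample 4, where they averaged above it. PV neuron markers summed to 3051 CPM in sample 10 and 4215 in sample 4, the lowest and highest of the 11 TRAP libraries. The part of these in the members' values was not tested.

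Both stressed groups were compared with the same 4 non-defeated samples, so these comparisons are not independent of each other. Markers of other cells are given beside them. All 4 globin genes were above non-defeated mice in susceptible mice, with a median log2 fold change of 2.61 and 2 passing adjustment, and in resilient mice, with a median of 0.73 and none passing at either threshold. The 4 endothelial markers were also above, with medians of 0.90 and 1.03, of which 1 in each comparison passed the unadjusted threshold and none the adjusted one (edgeR). Their summed levels were 8.03 to 13.04 CPM in susceptible, 4.18 to 18.2 in resilient and 3.29 to 5.88 in non-defeated samples. The part of these in the members' values was not tested. In susceptible against non-defeated mice 62 members were above and 15 below, with a median log2 fold change of 0.09 against 0.01 over all genes. At the unadjusted threshold 3 were higher and none lower, where 6.61% and 6.7% of all genes were. No member passed adjustment by edgeR's quasi-likelihood or likelihood ratio test or by DESeq2, and 0.0376% of all genes did. The 3 were Mrps33 at 0.32 ± 0.11 (adjusted p = 0.251, exact permutation p = 0.114), Mrps36 at 0.31 ± 0.13 (0.351 and 0.229) and Mrpl17, of the large subunit, at 0.25 ± 0.12 (0.374 and 0.229). Mrpl17 was at 21.3, 23.7 and 18.3 RPKM in susceptible and 20.8, 18.8, 15.9 and 15.2 in non-defeated samples, which overlap. Mrps14 was above every non-defeated library in all 3 susceptible ones, at 0.15 ± 0.07 (adjusted p = 0.405, exact permutation p = 0.0571), and Mrpl48 and Mrpl38 were below in all 3. In the other 74 members the groups overlapped, and the share of all genes without overlap is not given for this comparison. The count of members higher was 27 without susceptible sample 10 and 0 without sample 4, 9 without non-defeated sample 1 and 5 without sample 6. No share of all genes is given for these fits, since the shares above are those of the main fit. Without susceptible sample 4, 43 members were above and 34 below non-defeated mice. Within libraries numbered 1 to 6 the median was 0.09, and within those numbered 7 to 11 it was 0.001, with 39 members above and 38 below 0.

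In resilient against non-defeated mice 17 members were above and 60 below, with a median of −0.05 against 0.00 over all genes. None was higher at the unadjusted threshold and 2 were lower, where 2.22% and 2.16% of all genes were. No member passed adjustment with any of the 3 tests, and 0% of all genes did by edgeR. Mrpl47 was at 19.5, 17.9, 17.9 and 18.5 RPKM in resilient and 21.7, 21.4, 20.2 and 20.8 in non-defeated samples, all lower, with −0.19 ± 0.07 (p = 0.0188, adjusted p = 1; exact permutation p = 0.0286, the smallest for 4 against 4). Its exons overlap those of Actl6a and Ndufb5 on the opposite strand. In the other 76 members the resilient and non-defeated groups overlapped, and the share of all genes without overlap is not given here. Mrps14 had −0.19 ± 0.07 (adjusted p = 1, exact permutation p = 0.0571), with resilient sample 3 inside the non-defeated range. With sample number as a covariate 12 members were lower and 1 higher. Without non-defeated sample 9 the count of members lower was 6, and without resilient sample 3 it was 4. For the covariate and the left-out libraries no share of all genes is given. Within libraries numbered 1 to 6 the median was −0.10 and within those numbered 7 to 11 it was 0.0003, with 39 members above and 38 below 0.

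Side by side, Mrps14, Mrps36, Mrps33 and Mrps18c had −0.19, −0.22, −0.08 and −0.17 in resilient and 0.15, 0.31, 0.32 and 0.17 in susceptible against non-defeated mice. They had the smallest p between susceptible and resilient mice, and this choice favours values on both sides of 0. Mrpl48 had 0.11 and −0.13, and Mrpl12 0.06 and 0.18. Of all these values, only Mrps14 in resilient and Mrps36 and Mrps33 in susceptible mice passed the unadjusted threshold (edgeR). None passed adjustment. Cytosolic ribosomal proteins had medians of −0.18 and 0.18, the listed oxidative phosphorylation genes −0.14 and 0.11, and mitochondrially encoded mRNAs −0.62 and 0.31. At the unadjusted threshold 35 of 82 cytosolic ribosomal proteins were lower in resilient and 19 higher in susceptible mice. Of the 93 listed oxidative phosphorylation genes 6 were lower in resilient mice, and 8 were higher and 1 lower in susceptible mice. No mitochondrially encoded mRNA passed. The ribosomal RNAs mt-Rnr1 and mt-Rnr2 had −0.90 and −0.98 in resilient mice, both at the unadjusted threshold (edgeR), and 0.03 and −0.002 in susceptible mice. No gene of these lists passed adjustment.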

How the data were processed

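TRAP RNA of hippocampal PV neurons (4 non-defeated, 4 resilient and 3 susceptible samples) and total RNA of 3 input samples had been amplified as full-length cDNA with an unstranded kit. The authors trimmed reads with fastp, aligned them to mm10 with STAR and deposited raw counts per gene without normalization. The submitters' processing notes name STAR 2.5.3a and HTSeq, and the annotation is not given in the sources used here. Samples were grouped by their labels.

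Of 39017 identifiers, 37693 were named from GENCODE M21, and unnamed ones held 0.824% of counts. All 14 libraries were fitted in 1 model in R 4.3.3 with edgeR 4.0.16 (TMM, default filter, 21298 genes, quasi-likelihood, 2-sided, Benjamini-Hochberg over all genes tested). RPKM was computed with TMM library sizes and the union of annotated exons, and log2 CPM with a prior count of 2. The tests use the spread of replicates, and the part of depth in the error was not tested. The members and lists were chosen with earlier results of these data known. Named members were, per comparison and direction, the 3 with the smallest p, the 3 highest and lowest by RPKM, and 18 chosen by role. A gene of a related list was named where its adjusted p passed or the list was short. Alternatives were RLE normalization, other filters, a likelihood ratio test, DESeq2 1.42.0, fewer groups in the fit, sample number as a covariate, length and GC offsets, and each library left out. The fit was tested on simulated counts.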

Additional observations from a re-analysis of the deposited data

Results flagged for a closer look

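Among the named members, 66 groups of 4 samples were examined for a sample far from the others, and 1 was found. Chance flags about 1 group in 20, so 1 among 66 groups is no more than chance would give. Mrps27 was at 18.4 RPKM in non-defeated sample 1 and between 22.6 and 23.1 RPKM in the other 3 non-defeated samples. The gap took 0.9 of the range of the group, above Dixon's critical value for 4 samples. Its log2 fold change between TRAP and input was between 0.34 and 0.44 with each library left out.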

How the results depend on the processing

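Of TRAP against input, 70 to 72 members were higher with each library left out (medians 0.79 to 0.82), and the median was 0.86 with a GC offset. Susceptible against resilient, members higher numbered 5 to 41 with single libraries left out and 14 with the 2 groups alone, and members lower 1 to 2, 0 with a length offset and 2 with a GC offset. Members passing adjustment there numbered 0 to 9 with single libraries left out, 0 with no filter, the 2 groups alone, TRAP libraries only or a GC offset, 2 with at least 10 counts in every library or DESeq2, and 3 with the likelihood ratio test or sample number as covariate. The median was 0.09 to 0.24 with single libraries left out and 0.0116 among libraries numbered 7 to 11. Susceptible against non-defeated, members higher numbered 0 to 27 and lower 0 to 2 with single libraries left out (medians 0.01 to 0.17), and 1 was higher with the 2 groups alone, DESeq2, TRAP libraries only, a length offset or a GC offset. Resilient against non-defeated, members lower numbered 2 to 6 with single libraries left out (medians −0.08 to −0.04), 12 with sample number as covariate, when 1 was higher, and 1 with a GC offset. The median turned from −0.05 to 0.0003 among libraries numbered 7 to 11. Shares of all genes are given here for the main fit only, so counts under other settings have no such share beside them. The cause of these changes was not tested. No paired analysis was made, because the groups share no sample numbers and the labels do not say what the numbers stand for. Whether input and TRAP samples came from the same homogenates is not known. Values of single named members were followed only where they passed the unadjusted threshold in the main fit. Of these 610 kept their side of the threshold, 44 were weaker and 6 stronger. None changed sign, which this choice made unlikely from the start. Over all members signs did change. Between TRAP and input 76 were above 0 and 1 below with a length offset. Between susceptible and resilient mice 54 were above and 23 below without susceptible sample 4, against 65 and 12 in the main fit. Each group held 3 or 4 libraries, and the lowest count of any member in a library was 1316. What limits the precision was not tested.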
